A study of Mus musculus with 9 samples.

Results

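Proteins that cells secrete to build the extracellular matrix, beside its collagens, were examined here in CXCL12-abundant reticular (CAR) cells, the bone marrow stromal cells that make the chemokine Cxcl12. The genes were matrix glycoproteins, laminins, elastic fibre components and the large proteoglycans versican and aggrecan. They were chosen by name, as a list of 51 genes, with earlier results of these data known. A gene counted as measured when the platform table gave a probe set its symbol alone. By that rule 49 of the 51 were measured, each by 1 probe set, of 19938 genes measured in all. Fbn1 and Efemp2 were not analysed here. The listed gene Nov is called Ccn3 in the platform table.

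Mice carrying 1 Cxcl12 allele with green fluorescent protein (Cxcl12+/gfp, in both groups) received granulocyte colony-stimulating factor (G-CSF), 250 µg/kg daily over 5 days (5 arrays), or phosphate-buffered saline alone (PBS) over the same 5 days (4 arrays). Lineage-negative cells bright for the fluorescent protein were sorted from marrow, and their RNA was hybridised to Affymetrix Mouse Gene 1.0 ST arrays. GEO's source names give pre-B colonies for all 9 arrays, with a heterozygous Hspa9 genotype for G-CSF replicates 2 to 5 and wild type for G-CSF replicate 1 and all PBS arrays. Titles and treatments contradict this, and the groups here are those of the titles. Were the source names right, that genotype and G-CSF could hardly be told apart, since no PBS array carries it. The ages of the mice, and whether an array held 1 animal or a pool, are not given in the sources used here.

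Basement membranes are thin sheets in which trimeric laminins and type IV collagen are linked by nidogens and perlecan. Elastic fibres consist of elastin laid on microfibrils of fibrillin, with fibulins, emilins and microfibril-associated proteins at their surface. Matricellular proteins, such as tenascins, thrombospondins and the SPARC family, carry little load and act on adhesion and on growth factor access. In bone marrow, stromal cells supply much of this matrix, and blood-forming cells bind to it through integrins.

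Levels below are log2 RMA intensities of 1 probe set per gene, in which 1 unit is a factor of 2. A change is the G-CSF minus the PBS mean on that scale, with the standard error (SE) or the 95% interval of a limma fit over all 21789 probe sets with 1 symbol, and a gene rose or fell when its adjusted p was under 0.05. Levels of different probe sets are not comparable, so no gene was ranked against another by level. The arrays fell into 2 sets on the first principal component (34.9% of the variance), each with both groups: G-CSF replicates 1 to 3 with PBS replicates 1 and 2 (set 1), and G-CSF replicates 4 and 5 with PBS replicates 3 and 4 (set 2). The labels do not name this split. Over the 49 genes the median difference, set 2 minus set 1, was 0.24, against 0.10 over all probe sets. PBS replicate 3 lay farthest from 0 on that component, at 56.5, and the other set 2 arrays lay at 21.6 to 22.5. G-CSF replicates 4 and 5 were the most alike pair, with a standard deviation of 0.279 for their difference, against 0.372 to 0.670 for the other pairs within a group.

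Cxcl12, a defining marker of the sorted cell type, stood at 11.99 in G-CSF and 12.35 in PBS. Lepr, another, stood at 11.33 in G-CSF and 11.55 in PBS (means). Neither passed the threshold, but Cxcl12 was lower in every G-CSF array (change -0.36, adjusted p = 0.287), while the Lepr groups overlapped. The mean of 12 CAR and leptin receptor stroma markers was 9.70 to 9.72 over G-CSF arrays and 10.40 to 10.61 over PBS arrays. Their median change was -0.70, and 6 of the 12 fell, beside 0.877% of all probe sets. Adipoq (change -1.69), Kitl (-0.74) and Ebf3 (-0.66) were among those that fell. Pdgfra of the same list was higher in every G-CSF array without passing (change 0.28, adjusted p = 0.631). Neutrophil markers, which the lineage gate should remove, averaged 9.05 to 9.83 in G-CSF and 8.13 to 9.56 in PBS, with higher means in G-CSF for 12 of 12 and a rise past the threshold for Csf3r. Smooth muscle and pericyte markers averaged 5.83 to 6.09 in G-CSF and 5.30 to 5.56 in PBS (1 of 8 rose, Acta2). Fibroblast markers averaged 5.40 to 5.91 in G-CSF and 4.79 to 5.40 in PBS (1 of 7 rose, Dcn). Endothelial means of 4.61 to 4.81 in G-CSF lay within the 4.50 to 4.83 of PBS, and macrophage means were 5.07 to 5.30 in G-CSF and 5.14 to 5.81 in PBS. Of 10 endothelial markers 0 passed in limma (2 at an unadjusted p under 0.05), and of 10 macrophage markers 0 passed (2 unadjusted). Osteoblast means were 6.96 to 7.24 in G-CSF and 7.80 to 8.04 in PBS (1 of 5 fell, Phex), and erythroid means 4.41 to 4.90 in G-CSF and 4.98 to 6.27 in PBS (1 of 4 fell, Car1). RMA values have no zero, so no marker can be called absent. In sorted bulk cells, fewer cells of a type and less RNA per cell cannot be told apart.

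**Figure D1:**
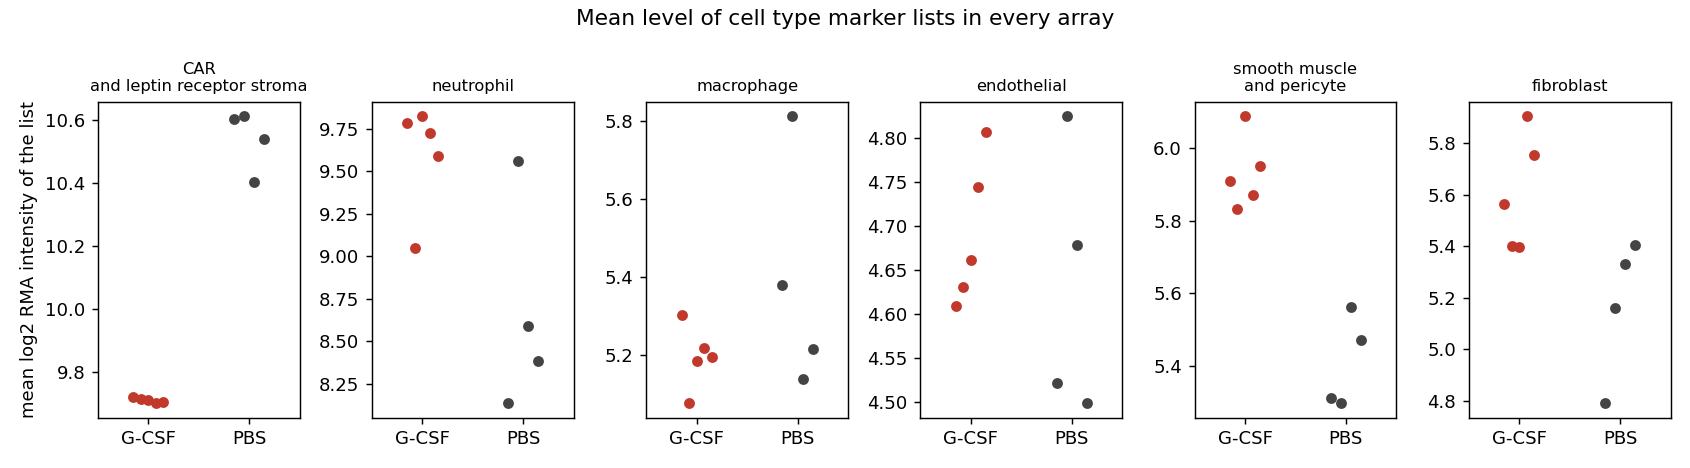
Mean log2 RMA intensity of 6 cell type marker lists (vertical axes, each with its own range) in every array, with 5 G-CSF arrays left and 4 PBS arrays right in each panel. The CAR and leptin receptor stroma list was lower in all G-CSF arrays, and the smooth muscle and pericyte list higher in all of them (5.83 to 6.09, against 5.30 to 5.56), while the ranges of the other 4 lists overlapped.

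Matrix genes changed in both directions after G-CSF. Of the 49 measured, 7 rose (Pamr1, Aebp1, Mgp, Vcan, Ecm1, Fbln1 and Lama4), 6 fell (Lama2, Matn2, Comp, Fbln5, Tnc and Nid2) and 36 did not pass. That is 26.5% past the threshold, beside 1.62% of all probe sets tested (0.743% risen and 0.877% fallen). Of 62 other matrix genes measured, 3 passed (4.84%). Both lists were drawn up with earlier results of these data known, so no share given here is a test of a list. The median change was 0.05, beside 0.01 over all probe sets. G-CSF and PBS arrays did not overlap for 22 of the 49, beside 4.65% of all probe sets, with 11 genes higher in every G-CSF array (beside 2.18%) and 11 lower in every one (beside 2.46%). The change was at least 2-fold for 4 of the genes that rose and for 1 that fell, Lama2.

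**Figure D2:**
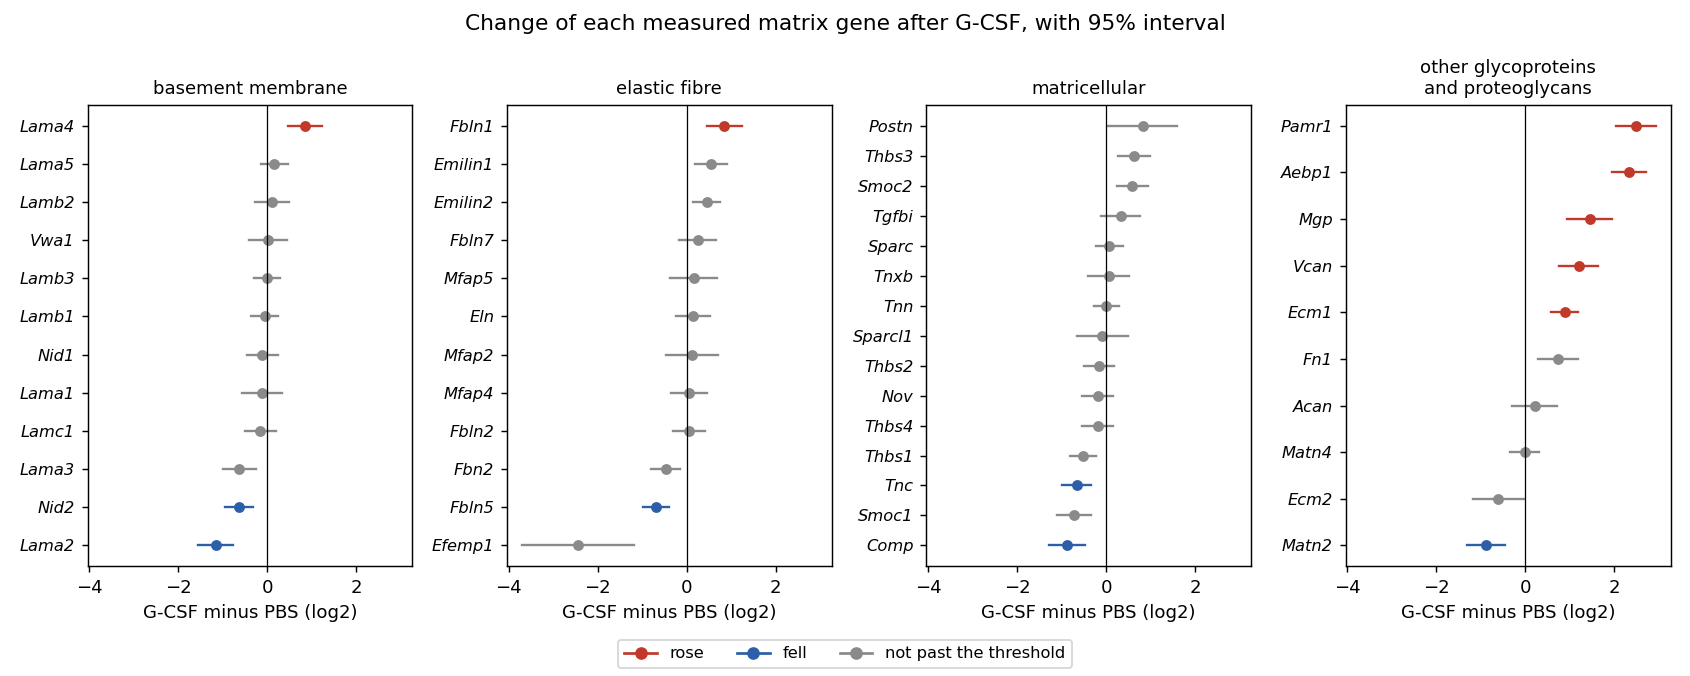
G-CSF minus PBS change (log2, horizontal axes) of the 49 measured matrix genes in 4 classes, with points for the limma estimate and bars for its 95% interval. Genes that rose (red) and fell (blue) stand out in each direction, led by Pamr1 at 2.49 and Aebp1 at 2.33 among the other glycoproteins and proteoglycans, and grey genes did not pass the threshold.

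Most of the rises lay in a mixed class, the matrix glycoproteins and proteoglycans outside the basement membrane, elastic fibre and matricellular classes. Of 10 such genes, 5 rose, 1 fell and 4 did not pass, with a median change of 0.81. That is 60.0% past the threshold, beside 1.62% of all probe sets. Aebp1, whose secreted product binds fibrillar collagen, stood at 9.04, 8.997, 8.79, 9.22 and 9.24 in G-CSF replicates 1 to 5, against 6.50, 6.45, 6.76 and 7.18 in PBS replicates 1 to 4. Every G-CSF array exceeded the highest PBS array by at least 1.604 units, and the rise was 5.04-fold (change 2.33, SE 0.18, adjusted p = 3.57e-05). Means were 9.06 ± 0.18 in G-CSF and 6.72 ± 0.34 in PBS (SD, n = 5 and n = 4). Pamr1, a secreted protein with a peptidase-like domain named for muscle regeneration, stood at 6.44, 6.99, 7.41, 6.79 and 7.11 in G-CSF replicates 1 to 5, against 4.68, 4.41, 4.09 and 4.68 in PBS replicates 1 to 4. The groups lay 1.76 units apart, and the rise was 5.60-fold (change 2.49, SE 0.20, adjusted p = 5.80e-05). Means were 6.95 ± 0.36 in G-CSF and 4.46 ± 0.28 in PBS (SD, n = 5 and n = 4). The PBS values lay below the median tested probe set of their arrays (5.37 to 5.44), and how far the fold rests on background is unknown. Aebp1 and Pamr1 were the only members of the 49 that passed within each array set fitted alone, at 2.47 in set 1 and 2.26 in set 2 for Aebp1 and 2.40 in set 1 and 2.57 in set 2 for Pamr1. Passing within set 1 alone were 4 of the 49 (beside 0.927% of all probe sets), with Vcan and Comp added, and within set 2 alone 2 (beside 0.271%).

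Mgp, or matrix Gla protein, is a small vitamin K-dependent protein that restrains calcification of soft tissue and cartilage. It stood at 12.85, 12.91, 13.04, 12.78 and 12.79 in G-CSF replicates 1 to 5, against 11.49, 12.15, 10.69 and 11.38 in PBS replicates 1 to 4. G-CSF arrays lay within 0.26 units of each other, whereas the PBS arrays spread over 1.46 units, with replicate 3 lowest and replicate 2 highest. The rise was 2.73-fold (change 1.45, SE 0.23, adjusted p = 0.00774), with 1.11 in set 1 and 1.75 in set 2. Means were 12.87 ± 0.11 in G-CSF and 11.43 ± 0.60 in PBS (SD, n = 5 and n = 4).

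Vcan, versican, a chondroitin sulphate proteoglycan that binds hyaluronan and is also made by myeloid cells, stood at 7.74, 7.53, 7.54, 7.98 and 8.04 in G-CSF replicates 1 to 5, against 6.52, 6.03, 6.87 and 6.87 in PBS replicates 1 to 4. All G-CSF arrays were higher than all PBS arrays, by 2.29-fold on average (change 1.19, SE 0.20, adjusted p = 0.00908). Means were 7.77 ± 0.24 in G-CSF and 6.57 ± 0.40 in PBS (SD, n = 5 and n = 4). Ecm1, a secreted glycoprotein that binds perlecan and other matrix proteins, stood at 11.34, 11.74, 11.57, 11.71 and 11.69 in G-CSF replicates 1 to 5, against 10.58, 10.69, 10.74 and 10.90 in PBS replicates 1 to 4. These groups did not overlap, and the rise was 1.84-fold (change 0.88, SE 0.14, adjusted p = 0.00717), at 0.91 in set 1 and 0.88 in set 2. Means were 11.61 ± 0.17 in G-CSF and 10.73 ± 0.13 in PBS (SD, n = 5 and n = 4). Means of neutrophil markers were higher in G-CSF for 12 of 12 (median change 0.96, 8 at an unadjusted p under 0.05), as were those of 7 of 8 smooth muscle and pericyte markers (median 0.33, 3 at such a p) and 7 of 7 fibroblast markers (median 0.38, 2 at such a p). The part of these cell types in the rises of Aebp1, Pamr1, Mgp, Vcan and Ecm1 was not tested.

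Matn2, a matrilin that links collagen fibrils and other matrix filaments, was the member of this class that fell. It stood at 6.50, 6.88, 6.21, 6.61 and 6.51 in G-CSF replicates 1 to 5, against 6.92, 7.58, 7.44 and 7.80 in PBS replicates 1 to 4, so that the highest G-CSF array (replicate 2) lay just under the lowest PBS array (replicate 1). The fall was 1.86-fold (change -0.89, SE 0.20, adjusted p = 0.0424). With 1 array omitted in turn, the call held in 2 of 9 fits (G-CSF replicate 2 or PBS replicate 1 omitted), and the adjusted p was highest, at 0.130, when PBS replicate 4 was omitted.

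Fn1, fibronectin, the main ligand of several integrins on blood-forming cells, stood at 7.46, 7.65, 7.69, 8.33 and 7.93 in G-CSF replicates 1 to 5, against 6.57, 7.13, 7.33 and 7.29 in PBS replicates 1 to 4. Every G-CSF array exceeded every PBS array, but the change did not pass over all arrays (change 0.73, 95% interval 0.27 to 1.18, adjusted p = 0.144). With the array set as a block it passed at adjusted p = 0.0155. Ecm2 was at -0.61 (adjusted p = 0.484), Acan, the aggrecan of cartilage, at 0.21 (adjusted p = 0.929) and Matn4, another matrilin, at -0.02 (adjusted p = 0.995), with overlapping groups for all 3. Chondrocyte markers, at list means of 4.85 to 5.28 in G-CSF and 4.91 to 5.54 in PBS, passed in 0 of 9 in limma (2 at an unadjusted p under 0.05).

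The windows around the transcription starts of Aebp1, Ecm1 and Vcan are shown because these rises held whichever array was left out. They span 250 bases before to 50 after the start in RefSeq's GRCm38.p6 annotation, and lie at chr11:5861616-5861915, plus strand, at chr3:95739520-95739819, minus strand, and at chr13:89742463-89742762, minus strand. Capitals mark matches on either strand to 5 motifs, and overlapping matches would run together. For STAT factors the letters searched were TTCNNNGAA. For AP-1 they were TGANTCA. The Sp1 motif was GGGCGG, the TATA box was searched as TATAAA, and the CCAAT box by its 5 letters. Position 1 is the first transcribed base, and a match is placed by its first base.
Aebp1: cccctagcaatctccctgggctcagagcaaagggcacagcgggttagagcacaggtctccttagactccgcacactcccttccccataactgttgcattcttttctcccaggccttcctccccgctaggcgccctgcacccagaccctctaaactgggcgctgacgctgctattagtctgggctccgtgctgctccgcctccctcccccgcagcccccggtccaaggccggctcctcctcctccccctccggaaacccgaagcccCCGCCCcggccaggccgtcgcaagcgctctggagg
Ecm1: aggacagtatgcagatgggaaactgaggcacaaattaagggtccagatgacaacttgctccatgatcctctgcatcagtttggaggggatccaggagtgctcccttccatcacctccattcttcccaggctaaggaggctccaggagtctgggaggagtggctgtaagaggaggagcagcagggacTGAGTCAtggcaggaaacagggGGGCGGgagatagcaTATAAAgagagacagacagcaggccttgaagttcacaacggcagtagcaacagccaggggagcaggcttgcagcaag
Vcan: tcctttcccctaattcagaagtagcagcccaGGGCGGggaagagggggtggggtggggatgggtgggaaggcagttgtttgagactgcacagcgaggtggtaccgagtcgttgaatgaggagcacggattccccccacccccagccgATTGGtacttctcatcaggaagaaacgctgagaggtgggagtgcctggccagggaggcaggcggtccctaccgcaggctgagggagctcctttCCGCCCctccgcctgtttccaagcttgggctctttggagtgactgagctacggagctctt
The Ecm1 window holds an AP-1 match at position -64, an Sp1 match at position -42 and a TATA box at position -27. Aebp1 has 1 Sp1 match, at position 16, and Vcan has Sp1 matches at positions -219 and -10 and a CCAAT box at position -103. Among all 32851 windows of this length, 8.30% hold the STAT motif, 7.81% AP-1, 35.7% Sp1, 13.6% a TATA box and 37.4% a CCAAT box. The table held windows for 7 of the 13 members past the threshold (Aebp1, Ecm1, Vcan, Lama2, Fbln1, Fbln5 and Tnc). In the first listed window of each, Sp1 matched in 6, the TATA box in 2, the CCAAT box in 2, AP-1 in 1 and STAT in 0. A match describes letters in the window and is not evidence that a factor binds there.

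**Figure D3:**
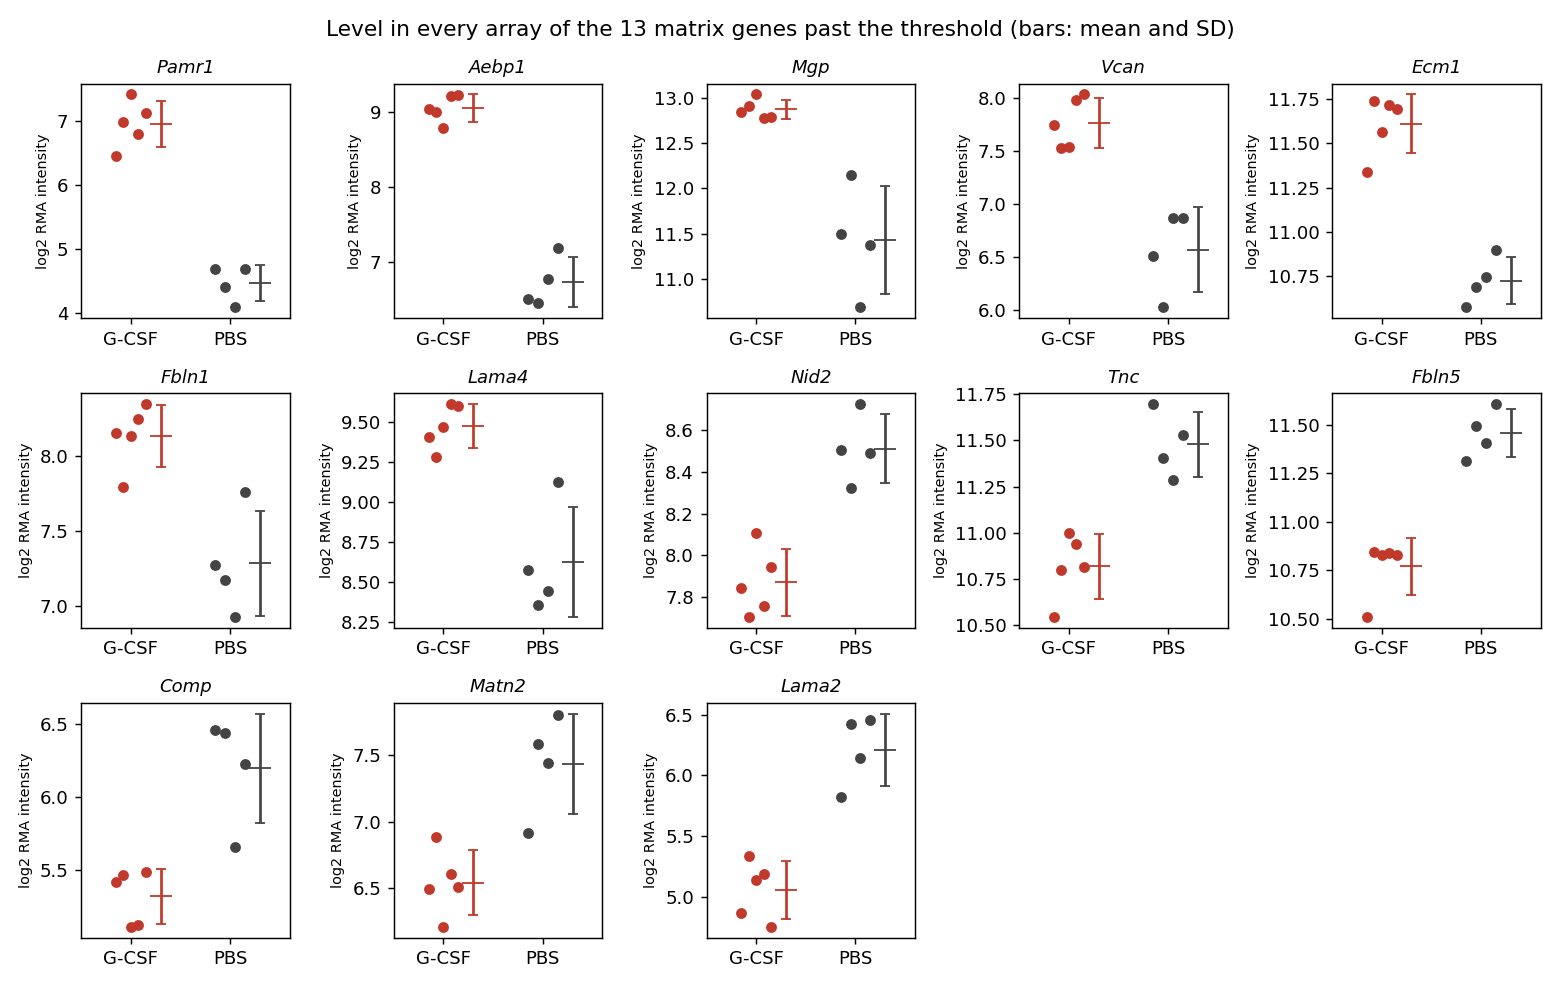
Log2 RMA intensity (vertical axes, each with its own range, not from 0) of the 13 matrix genes past the threshold, with a point for each of 5 G-CSF arrays (left, red) and 4 PBS arrays (right, grey) and bars for the mean and SD. The groups do not overlap for any of the 13, and the gaps are widest for Pamr1 and Aebp1 and narrowest for Matn2 and Fbln1.

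Of 12 basement membrane genes, 1 rose (Lama4), 2 fell (Lama2 and Nid2) and 9 did not pass, with a median change of -0.08. That is 25.0% past the threshold, beside 1.62% of all probe sets. Lama4 and Lama2 encode laminin alpha chains, and the other 3 alpha chains measured did not pass, nor did the beta and gamma chains. A laminin is a trimer of 1 alpha, 1 beta and 1 gamma chain, and the alpha chain carries most of its receptor binding. Lama4, the alpha chain of vessel walls and marrow stroma, stood at 9.41, 9.28, 9.47, 9.61 and 9.60 in G-CSF replicates 1 to 5, against 8.57, 8.36, 8.44 and 9.13 in PBS replicates 1 to 4. G-CSF arrays were all higher, although PBS replicate 4 came within 0.16 units of them, and the rise was 1.80-fold (change 0.85, SE 0.17, adjusted p = 0.0292). Lama2, the alpha chain known from muscle and peripheral nerve, stood at 4.86, 5.33, 5.14, 5.19 and 4.75 in G-CSF replicates 1 to 5, against 5.82, 6.42, 6.14 and 6.46 in PBS replicates 1 to 4. Here every G-CSF array was lower, and the fall was 2.23-fold (change -1.16, SE 0.18, adjusted p = 0.00572), at -1.01 in set 1 and -1.33 in set 2. Means were 5.05 ± 0.24 in G-CSF and 6.21 ± 0.30 in PBS (SD, n = 5 and n = 4). The G-CSF values lay below the median tested probe set of their arrays (5.36 to 5.48), and how far the fold rests on background is unknown.

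The fall of Lama2 was called in each of the 9 fits that left out 1 array. The rise of Lama4 was called in 2 of those 9, with G-CSF replicate 2 or PBS replicate 4 omitted, and its adjusted p was 0.0938 with PBS replicate 2 omitted. Its change was nearly the same in the array sets (0.92 in set 1 and 0.82 in set 2), and with the set as a block the adjusted p was 0.00814. Endothelial cells also make Lama4, and the endothelial list means of the groups overlapped. Of the 10 endothelial markers, 2 were higher at an unadjusted p under 0.05 in limma, and 6 had lower means in G-CSF. Smooth muscle and pericyte list means were higher in every G-CSF array. The part of either cell type in the rise of Lama4 was not tested.

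The beta and gamma chains had intervals that spanned 0. Lamb1 stood at 8.97, 8.89, 8.66, 9.02 and 9.07 in G-CSF replicates 1 to 5, against 8.99, 8.83, 8.98 and 9.13 in PBS replicates 1 to 4, with overlapping groups (change -0.06, 95% interval -0.36 to 0.24, adjusted p = 0.981). Lamc1, the gamma chain shared by most laminins, stood at 9.25, 9.10, 9.03, 9.55 and 9.51 in G-CSF replicates 1 to 5, against 9.30, 9.42, 9.35 and 9.70 in PBS replicates 1 to 4 and overlapped as well (change -0.15, 95% interval -0.50 to 0.19, adjusted p = 0.913). Lamb2 was at 0.11 (interval -0.27 to 0.49) and Lamb3 at -0.01 (interval -0.30 to 0.28). Of the remaining alpha chains, Lama3 was lower in every G-CSF array without passing (change -0.63, 95% interval -1.001 to -0.26, adjusted p = 0.111), and passed with the set as a block at 0.0380. Lama1 (-0.12) and Lama5 (0.16) had overlapping groups.

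Nidogens link laminin to type IV collagen. Nid2 stood at 7.84, 7.70, 8.11, 7.76 and 7.94 in G-CSF replicates 1 to 5, against 8.50, 8.32, 8.72 and 8.49 in PBS replicates 1 to 4, lower in every G-CSF array, and fell 1.56-fold (change -0.64, SE 0.14, adjusted p = 0.0482). That call held in 0 of the 9 fits with 1 array omitted, where the adjusted p was 0.0540 to 0.128 (highest with G-CSF replicate 4 omitted) and the change -0.70 to -0.57. Nid1 stood at 8.68, 8.83, 8.75, 9.21 and 9.14 in G-CSF replicates 1 to 5, against 8.95, 8.86, 8.99 and 9.34 in PBS replicates 1 to 4, and its groups overlapped (change -0.11, 95% interval -0.47 to 0.25, adjusted p = 0.960). Vwa1, a von Willebrand factor A domain protein that binds perlecan, was at 0.02 (interval -0.40 to 0.43). Another 22 basement membrane genes and receptors were measured, among them perlecan (Hspg2), agrin, the collagen IV chains Col4a1 and Col4a2, dystroglycan (Dag1) and laminin-binding integrin chains. Of these, 0 passed at an adjusted p of 0.05 in limma (2 at an unadjusted p under 0.05), beside 1.62% of all probe sets. The smallest p-values among them were those of Npnt, nephronectin (change -0.85, SE 0.20, adjusted p = 0.0555), and Fras1 (change -0.38, SE 0.15, adjusted p = 0.397).

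The window of Lama2 is shown as that of the laminin chain that fell in every fit with 1 array left out, and it lies at chr10:27616893-27617192, minus strand. Capitals mark the only match to the motifs above, an Sp1 match at position 18.
Lama2: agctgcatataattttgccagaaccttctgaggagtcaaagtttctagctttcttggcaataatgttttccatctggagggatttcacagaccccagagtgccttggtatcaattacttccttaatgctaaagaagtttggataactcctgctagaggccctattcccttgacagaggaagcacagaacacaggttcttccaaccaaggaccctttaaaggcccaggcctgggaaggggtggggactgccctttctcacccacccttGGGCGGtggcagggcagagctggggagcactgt

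Elastic fibre genes passed in 1 case in each direction. Of 12 measured, 1 rose (Fbln1), 1 fell (Fbln5) and 10 did not pass, with a median change of 0.13. That is 16.7% past the threshold, beside 1.62% of all probe sets. Fbln5, a fibulin that binds tropoelastin and is needed for elastic fibre assembly in mice, stood at 10.51, 10.84, 10.83, 10.84 and 10.83 in G-CSF replicates 1 to 5, against 11.31, 11.50, 11.41 and 11.61 in PBS replicates 1 to 4. All G-CSF arrays were lower, 4 of them at 10.83 or 10.84, and the fall was 1.61-fold (change -0.69, SE 0.14, adjusted p = 0.0262). Its change was alike in the array sets (-0.68 in set 1 and -0.68 in set 2), but the call held in 3 of 9 fits with 1 array omitted (G-CSF replicate 2, PBS replicate 1 or PBS replicate 3). The adjusted p was highest, at 0.0866, with PBS replicate 4 omitted. Fbln1, a fibulin of basement membranes and elastic fibres that binds fibronectin, stood at 8.15, 7.79, 8.13, 8.24 and 8.34 in G-CSF replicates 1 to 5, against 7.27, 7.17, 6.93 and 7.76 in PBS replicates 1 to 4. G-CSF replicate 2 lay only just above PBS replicate 4, and the rise was 1.80-fold (change 0.85, SE 0.18, adjusted p = 0.0395). That call held in 2 of 9 fits, with G-CSF replicate 2 or PBS replicate 4 omitted, and the adjusted p was 0.115 with PBS replicate 2 omitted.

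Efemp1, a fibulin-like protein of elastic fibres, had the widest spread of the 49 genes among G-CSF arrays and was singled out after its values were seen. It stood at 6.48, 6.68, 4.47, 7.75 and 8.08 in G-CSF replicates 1 to 5, against 8.44, 9.16, 9.27 and 9.68 in PBS replicates 1 to 4. Every G-CSF array was below every PBS array, and G-CSF replicate 3 was far below the rest, while G-CSF replicates 4 and 5 came nearest to PBS. The change was the largest fall by size among the 49 but did not pass (change -2.45, 95% interval -3.71 to -1.18, adjusted p = 0.0622). Without G-CSF replicate 3 it was -1.89 and passed at adjusted p = 0.0348, without G-CSF replicate 5 it was -2.79 and passed at 0.0331, and with the set as a block it passed at 0.0126, with -2.92 in set 1 and -1.56 in set 2.

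Elastin itself did not pass. Eln stood at 5.18, 5.41, 5.42, 5.81 and 5.67 in G-CSF replicates 1 to 5, against 4.99, 5.35, 5.58 and 5.51 in PBS replicates 1 to 4, with overlapping groups (change 0.14, 95% interval -0.24 to 0.52, adjusted p = 0.944). The emilins, which sit between elastin and microfibrils, were at 0.55 for Emilin1 (adjusted p = 0.185) and 0.45 for Emilin2 (adjusted p = 0.203), and Emilin2 was higher in every G-CSF array. Fbn2, a fibrillin, was lower in every G-CSF array without passing (change -0.47, 95% interval -0.79 to -0.15, adjusted p = 0.1995). Fbln2, Fbln7, Mfap2, Mfap4 and Mfap5 had overlapping groups, with changes of 0.05 to 0.24. Of 17 other measured elastic fibre assembly genes, only Adamtsl4, a fibrillin-binding ADAMTS-like protein, rose (change 0.70, SE 0.15, adjusted p = 0.0312), and that call held in 2 of the 9 fits with 1 array omitted. The 1 call is 5.88% of that list, beside 1.62% of all probe sets. Loxl4, a lysyl oxidase that cross-links elastin and collagen, had the next smallest p (change 0.75, SE 0.22, adjusted p = 0.167), and Lox was at 0.02 (interval -0.31 to 0.35).

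The first listed window of Fbln5 lies at chr12:101819070-101819369, minus strand, and is shown as that of the elastic fibre gene that fell. Capitals mark Sp1 matches at positions -221 and -48 and a CCAAT box at position -150.
Fbln5: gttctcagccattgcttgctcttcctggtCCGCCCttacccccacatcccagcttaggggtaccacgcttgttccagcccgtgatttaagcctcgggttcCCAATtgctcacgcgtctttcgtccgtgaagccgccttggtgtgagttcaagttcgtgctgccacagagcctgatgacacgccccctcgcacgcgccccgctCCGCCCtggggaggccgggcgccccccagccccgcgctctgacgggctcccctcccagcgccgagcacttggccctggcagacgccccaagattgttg

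The matricellular genes of the member list had falls only, at the threshold used. Among 23 other matricellular and adhesive genes, given below, 2 rose and 0 fell at that threshold. Of 15 measured, 2 fell (Comp and Tnc), 0 rose (3 were higher at an unadjusted p under 0.05 in limma) and 13 did not pass, with a median change of -0.08. That is 13.3% past the threshold, beside 1.62% of all probe sets. Tnc, tenascin-C, an anti-adhesive protein of marrow stroma and healing tissue, stood at 10.54, 10.80, 10.998, 10.94 and 10.82 in G-CSF replicates 1 to 5, against 11.70, 11.40, 11.29 and 11.53 in PBS replicates 1 to 4. G-CSF arrays were all lower, and the fall was 1.58-fold (change -0.66, SE 0.15, adjusted p = 0.0468). The call held in 1 of 9 fits with 1 array omitted (PBS replicate 3), and the adjusted p was highest, at 0.144, with PBS replicate 1 omitted. Comp, cartilage oligomeric matrix protein, a pentameric thrombospondin, stood at 5.42, 5.46, 5.11, 5.12 and 5.48 in G-CSF replicates 1 to 5, against 6.46, 6.44, 5.66 and 6.23 in PBS replicates 1 to 4. PBS replicate 3 was nearest to the G-CSF arrays, and the fall was 1.84-fold (change -0.88, SE 0.19, adjusted p = 0.0357). Its call too held in 1 of 9 fits, where omitting PBS replicate 3 gave an adjusted p of 0.00531 and a change of -1.06. Omitting PBS replicate 1 gave an adjusted p of 0.115. The G-CSF values of Comp lay near the median tested probe set of their arrays (5.36 to 5.48), and how far its fold rests on background is unknown. CAR and leptin receptor stroma markers had a median change of -0.70 (10 of 12 with lower means in G-CSF). Osteoblast markers had one of -0.52 (5 of 5 lower). The part of these cell types in the falls of Lama2, Nid2, Matn2, Fbln5, Comp and Tnc was not tested.

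Thrombospondins other than Comp did not pass. Thbs1, which can release TGF-beta from its latent complex, stood at 8.79, 8.77, 8.63, 8.67 and 8.58 in G-CSF replicates 1 to 5, against 9.24, 9.06, 9.42 and 9.08 in PBS replicates 1 to 4, lower in every G-CSF array (change -0.51, 95% interval -0.81 to -0.22, adjusted p = 0.1001). Thbs3 was higher in every G-CSF array (change 0.64, 95% interval 0.28 to 0.999, adjusted p = 0.0985), and it passed with the set as a block at 0.0199. Thbs2 (-0.16) and Thbs4 (-0.19) had overlapping groups. Platelet and megakaryocyte markers, whose cells carry Thbs1, averaged 4.51 to 6.75 in G-CSF and 4.76 to 6.49 in PBS, with overlapping ranges; 0 of 5 passed in limma (0 at an unadjusted p under 0.05).

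Members of the SPARC family did not pass over all arrays. Sparc, osteonectin, stood at 12.28, 12.38, 12.49, 12.68 and 12.62 in G-CSF replicates 1 to 5, against 12.37, 12.39, 12.33 and 12.59 in PBS replicates 1 to 4, and its groups overlapped (change 0.07, 95% interval -0.23 to 0.37, adjusted p = 0.976). Smoc1, a calcium-binding relative that antagonises bone morphogenetic proteins, was lower in every G-CSF array (change -0.72, 95% interval -1.10 to -0.34, adjusted p = 0.0702), and Smoc2 higher in every one (change 0.59, 95% interval 0.24 to 0.94, adjusted p = 0.119), without passing. Both passed with the set as a block, at 0.0471 for Smoc1 and 0.0329 for Smoc2. Sparcl1 was at -0.08 (adjusted p = 0.983).

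Postn, periostin, a fibroblast and periosteal protein, stood at 4.60, 5.42, 6.41, 5.96 and 6.19 in G-CSF replicates 1 to 5, against 4.64, 4.93, 4.35 and 5.65 in PBS replicates 1 to 4. The arrays spread over 1.81 units in G-CSF and 1.303 in PBS and overlapped, and the change did not pass (change 0.82, 95% interval 0.05 to 1.59, adjusted p = 0.479). Tgfbi, a relative of periostin, was at 0.33 (adjusted p = 0.755), the tenascins Tnn and Tnxb at 0.01 and 0.06, and Nov, a CCN family protein, at -0.19. Of 23 other measured matricellular and adhesive genes, 2 rose in each of the 9 fits with 1 array left out as well as over all arrays. The 2 are 8.70% of that list, beside 1.62% of all probe sets past the threshold over all arrays. Wisp2 (Ccn5 in the platform table), another CCN family protein, rose 2.17-fold (change 1.12, SE 0.15, adjusted p = 0.00193), and Itgb5, the integrin chain that pairs with the alpha V chain to bind vitronectin, rose 2.27-fold (change 1.18, SE 0.18, adjusted p = 0.00548).

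The first listed window of Tnc lies at chr4:64046966-64047265, minus strand, shown for the tenascin that fell. Capitals mark an Sp1 match at position -167 and TATA box letters at position -126.
Tnc: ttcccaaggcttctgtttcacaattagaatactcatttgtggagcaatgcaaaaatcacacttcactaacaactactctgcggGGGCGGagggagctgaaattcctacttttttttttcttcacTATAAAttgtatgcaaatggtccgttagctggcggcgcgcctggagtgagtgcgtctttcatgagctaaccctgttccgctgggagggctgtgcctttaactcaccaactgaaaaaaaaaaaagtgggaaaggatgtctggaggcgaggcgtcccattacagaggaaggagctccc

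Calls of the 13 genes differed in how far they rested on single arrays. The rises of Aebp1, Pamr1, Mgp, Vcan and Ecm1 and the fall of Lama2 were called in all 9 fits that left out 1 array, with adjusted p of at most 0.0342 (Vcan without PBS replicate 1). The other 7 calls were each lost in at least 6 of the 9. Of the 49, 10 were called without G-CSF replicate 2 (beside 1.28% of all probe sets), 9 without PBS replicate 3 (1.46%), and 8 without PBS replicate 1 (0.964%) or PBS replicate 4 (1.08%). It was 7 without G-CSF replicate 3 (1.08%) or 5 (1.11%), and 6 without G-CSF replicate 1 (1.02%), G-CSF replicate 4 (1.03%) or PBS replicate 2 (1.14%).

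**Figure D4:**
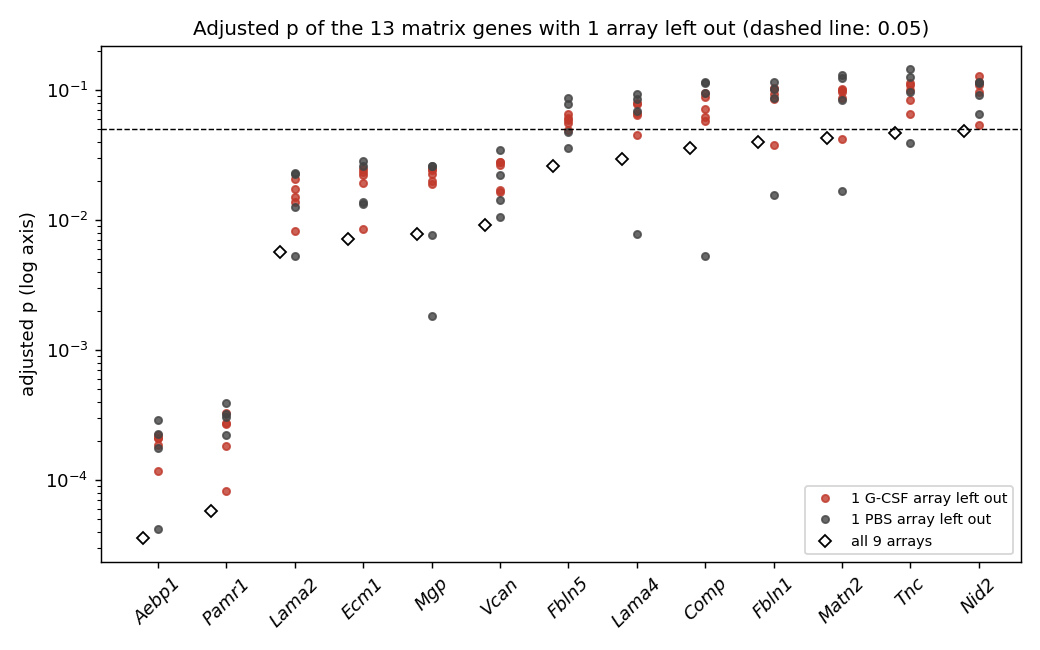
Adjusted p (log axis) of the 13 matrix genes past the threshold in fits that each left out 1 of 5 G-CSF arrays (red) or 1 of 4 PBS arrays (grey), with open diamonds for the fit over all 9 arrays and a dashed line at 0.05. The 6 genes on the left stay under the line in every fit, and the 7 on the right cross it.

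The sign of the change was shared by the array sets for all 13 genes past the threshold, which were chosen on both sets together, and for 36 of the 49 measured, beside 54.8% of all probe sets. With the set as a block, 19 of the 49 passed, beside 2.74% of all probe sets. These were the 13 and 6 more, Efemp1, Fn1, Thbs3, Smoc1, Smoc2 and Lama3.

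**Figure D5:**
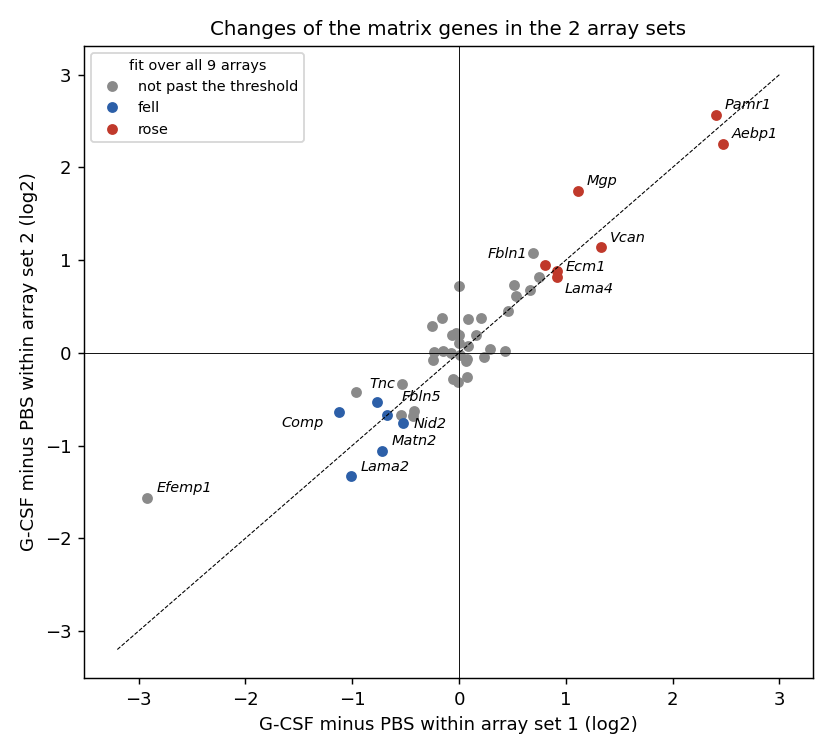
G-CSF minus PBS change (log2) of the 49 measured matrix genes within array set 1 (horizontal, 3 G-CSF and 2 PBS arrays) and within array set 2 (vertical, 2 G-CSF and 2 PBS arrays), with a dashed line of equal change. Genes that rose (red) lie in the upper right and those that fell (blue) in the lower left, and Efemp1, at -2.92 in set 1 and -1.56 in set 2, lies far from the other grey points.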

How the data were processed

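Titles put 5 arrays in the G-CSF group and 4 in the PBS group. RNA of the sorted cells was amplified (NuGEN Ovation Pico SL) and biotin-labelled, per the labels' protocols. The deposited values are RMA intensities, which the authors obtained in Affymetrix Expression Console according to the submitters' processing notes; its version is not given in the sources used here. They span 1.73 to 15673.1, a linear scale, and log2 was taken here. RMA is meant to bring arrays to a common distribution, so a change is relative to the other transcripts, and no detection call exists. The tested values still differed in spread. Their log2 interquartile range was 2.56 to 2.90 in set 1 arrays and 2.17 (PBS replicate 3) to 2.52 in set 2 arrays. The effect of this difference on the changes was not tested beyond the further quantile normalisation given below.

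Of 35553 probe sets, 21789 had 1 gene symbol and were tested, 1621 had several and 12143 none. A gene with several was read from the brightest by mean, and list symbols were matched through a GRCm38.p6 gene table, used for names only. limma 3.58.1 (lmFit, eBayes) in R 4.3.3 compared the groups on all 9 arrays, two-sided, with Benjamini-Hochberg adjustment over the 21789. Members, gene lists, naming rule and array sets were chosen with earlier results of these data known. Values in every array are given for members past the threshold and for Fn1, Fbn1, Eln, Lama4, Lamb1, Lamc1, Nid1, Nid2, Tnc, Postn, Sparc, Thbs1, Vcan and Mgp, of which Fbn1 was not measured. Of other matrix genes, those past the threshold and the 2 with the smallest p of each list are named, and some further ones as members of a family. Titles call the arrays biological replicates without naming animals, so each p rests on array-to-array spread, which may be partly technical, and the number of arrays limits the precision.

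Alternatives were other probe set filters, eBayes settings, normalisations, array weights, a mean over probe sets, a looser threshold, replicate number or array set as a block, each set alone, G-CSF replicates 4 and 5 averaged, and each array omitted. On simulated data for this comparison (21789 probe sets, 50 changed at each size), the fit recovered 2% at a log2 change of 0.5, 72% at 1, 92% at 1.5 and 94% at 2, with 8 false calls. The simulated noise was normal and independent between arrays and probe sets. It held no array sets and no arrays more alike than others, so these figures may not hold for the real arrays.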

Additional observations from a re-analysis of the deposited data

Results flagged for a closer look

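Fbln5 in G-CSF replicate 1 stood at 10.51, the lowest of the 5 G-CSF arrays, with the nearest at 10.83 and the highest at 10.84. Its gap to the nearest was 0.948 of the group's range, above Dixon's 95% critical value for 5 arrays. It was the only array so marked in 98 groups tested (49 genes in G-CSF and in PBS), where chance marks about 1 group in 20. The array lay farther from PBS than the other G-CSF arrays did.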

How the results depend on the processing

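The 13 members called became 6 of 49 over all 35553 probe sets (beside 0.509% called), 7 with G-CSF replicates 4 and 5 averaged (1.11%), 4 within array set 1 and 2 within set 2, and 6 to 10 with 1 array omitted. They became 11 with trend and robust eBayes (1.49%) or further quantile normalisation (1.68%), and 13 to 19 under the remaining settings without a replicate block. Over all probe sets, the 353 calls became 181 with unnamed probe sets included, 598 with the array set as a block, 202 within set 1, 59 within set 2, and 210 to 318 with 1 array omitted. The 3 other matrix genes called became 1 within set 1 and 0 of 62 within set 2 (7 at an unadjusted p under 0.05), and 2 to 3 with 1 array omitted. Same-numbered arrays deviated together at correlations of 0.28, 0.14, -0.28 and 0.35, and PBS replicate 1 went best with G-CSF replicate 3 (0.32). Pairs within an array set were all positive and pairs across sets all negative. These correlations follow the sets, so they cannot show whether the numbers pair the arrays. With the replicate block, 6 members (beside 0.826%) and 180 probe sets were called, and Vwa1 changed sign at -0.064. The 6 were Aebp1, Pamr1, Lama2, Vcan, Mgp and Efemp1, the last (adjusted p = 0.0249) not among the 13. Ecm1 was lost there, at adjusted p = 0.0530. No member past the threshold changed sign under any setting run. Members that were not called and changed sign were, within set 1, Lama1 0.071, Lamb2 -0.16, Lamb3 0.0064, Vwa1 -0.065, Mfap2 -0.0011, Mfap4 -0.024, Tgfbi -0.0029 and Matn4 0.068. Within set 2 they were Lamc1 0.0061, Nid1 0.014, Tnn -0.071, Tnxb -0.046 and Sparcl1 0.29. With array weights (0.336 for PBS replicate 3) they were Lama1 0.058, Lamb2 -0.0078, Mfap2 -0.024, Sparcl1 0.098 and Matn4 0.063, with G-CSF replicates 4 and 5 averaged Vwa1 -0.058 and Mfap4 -0.0018, with quantile normalisation Tnn -0.0060 and with median centring Tnn -0.000931. Sign changes with 1 array omitted came for Lama1 (-0.29 to 0.012), Lamb1 (-0.11 to 0.0065), Lamb2 (-0.034 to 0.21), Lamb3 (-0.088 to 0.054), Vwa1 (-0.064 to 0.16), Fbln2 (-0.012 to 0.17), Mfap2 (-0.071 to 0.31), Mfap4 (-0.067 to 0.16), Mfap5 (-0.015 to 0.35), Tnn (-0.023 to 0.062), Tnxb (-0.095 to 0.26), Sparcl1 (-0.29 to 0.045) and Matn4 (-0.071 to 0.063). The cause of these shifts was not tested. Without a detection call, the signal over background behind a level is unknown.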
